A study of Mus musculus with 4 samples.

Results

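The 9 genes Flt3, Cd34, Bcl11a, Emb, Sox4, Syk, Cd69, Cd79b and Klrb1c were followed across single haematopoietic stem cells (HSCs) of mouse bone marrow. They were named as genes of multipotent and lymphoid progenitors, and all 9 were among the 13742 genes of the count table. Cells were used if they had at least 10000 counts and at least 1000 genes detected, which kept 292 of 297 cells. Kept cells numbered 74, 75, 71 and 72 in libraries 1 to 4.

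The cells came from wild-type mice, 8 weeks old, and carried no further genotype or treatment in the labels. They were sorted as negative for lineage markers and CD48 and positive for Kit, Sca1, CD150 and CD201 (EPCR), a gate called ESLAM SK, and were split on CD27 into CD27- and CD27+ cells. Each of the 4 libraries holds both gates per the labels, and a cell can be traced to its library but not to its gate. No comparison between gates was therefore made, and every value is given over libraries. Separate mice are not named for the libraries, so SDs and p-values measure only the spread between libraries, which may be technical. The same protocol was used for all cells: STRT-seq, in which each cell receives a barcode at reverse transcription and the 3′ ends of the cDNA are sequenced.

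HSCs give rise to multipotent progenitors, and these in turn to lymphoid and myeloid precursors. In the mouse, surface Flt3 and Cd34 are low or lacking on the most primitive HSCs and appear on progenitors. Transcripts of lymphoid genes can be found at low level in multipotent cells before a lineage is chosen, which is known as lineage priming. Cd79b, Klrb1c and Cd69 are best known from mature B cells, natural killer cells and activated lymphocytes.

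Totals per kept cell ran from 10653 to 346876 counts with a median of 94441, and library medians ran from 65416 in library 3 to 142675 in library 4. The labelled cell type was checked against its markers: all 20 HSC identity genes were in the table and 19 were found in at least 20% of cells. Cd48, against which the cells were sorted, had counts in 2 cells. Of the antigens sorted for, Ly6a (Sca1) had counts in 271 cells, Kit in 248, Procr (CD201) in 222 and Slamf1 (CD150) in 75. B cell markers (4 of 10 in the table) summed to between 0 and 3.48 CPM (counts scaled to a common library total) per library. Ms4a1 and Pax5 had counts in 1 cell each. T and NK cell markers (5 of 12 in the table) summed to between 0.0892 and 9.39 CPM, and Cd3e had counts in 1 cell. Macrophage markers (3 of 8 in the table) summed to between 12.5 and 33.7 CPM. Other lists were not low. Myeloid markers (13 of 14 in the table) summed to between 1680 and 1863 CPM, with Lyz2 in 274 cells and Prtn3 in 256. Erythroid markers (11 of 11) summed to between 2634 and 3836 CPM, with Car2 in 292 cells. Megakaryocyte and platelet markers (12 of 12) summed to between 1444 and 1637 CPM. Consecutively numbered cells that resembled each other stood apart in library 2 (cells 25 to 32) and library 4 (cells 9 to 16), 15 kept cells in all. Cell numbers, which mark barcodes or tubes, were shared by all 4 libraries for 26 numbers.

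The promoters of Flt3, Cd34 and Sox4 are shown because these genes were found in the same cells more often than their shares give, and that of Klrb1c because it was not. Each is the 250 bases before the RefSeq start on GRCm38.p6, read 5′ to 3′ on the gene's strand. For Klrb1c the RefSeq start lies 574 bases from the GENCODE start, and the window falls within the GENCODE gene. Capitals mark an E-box (CANNTG, bound by E proteins) or the letters GAGGAA found in many PU.1 sites. The windows are chr5:147400490-147400739 on the minus strand for Flt3, chr1:194938571-194938820 on the plus strand for Cd34, chr13:28953700-28953949 on the minus strand for Sox4 and chr6:128788642-128788891 on the minus strand for Klrb1c.
Flt3: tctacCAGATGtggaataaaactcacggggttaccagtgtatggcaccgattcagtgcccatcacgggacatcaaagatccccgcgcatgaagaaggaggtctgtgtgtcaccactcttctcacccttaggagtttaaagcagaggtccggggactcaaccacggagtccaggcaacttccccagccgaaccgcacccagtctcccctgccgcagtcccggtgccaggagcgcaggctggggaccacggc
Cd34: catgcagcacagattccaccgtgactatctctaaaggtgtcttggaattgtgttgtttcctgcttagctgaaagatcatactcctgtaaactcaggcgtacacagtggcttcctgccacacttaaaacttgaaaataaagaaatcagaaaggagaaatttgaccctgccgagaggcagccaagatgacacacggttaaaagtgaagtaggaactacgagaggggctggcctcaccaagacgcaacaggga
Sox4: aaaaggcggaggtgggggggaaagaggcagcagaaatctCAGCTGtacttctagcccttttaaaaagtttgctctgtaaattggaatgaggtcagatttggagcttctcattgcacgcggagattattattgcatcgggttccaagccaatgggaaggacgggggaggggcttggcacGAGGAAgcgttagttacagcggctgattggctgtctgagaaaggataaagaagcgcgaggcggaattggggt
Klrb1c: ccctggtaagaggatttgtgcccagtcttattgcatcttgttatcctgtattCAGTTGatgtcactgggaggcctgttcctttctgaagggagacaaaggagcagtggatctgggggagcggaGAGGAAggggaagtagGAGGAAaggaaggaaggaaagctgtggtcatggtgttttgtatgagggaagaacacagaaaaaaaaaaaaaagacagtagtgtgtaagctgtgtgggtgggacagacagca
Both strands were searched for the E-box and for GAGGAA, and no marked match overlapped another. A RUNX core, spelled TGTGGT, was searched in the same way. So was a GC box, spelled GGGCGG. Flt3 held 1 E-box and none of the other 3 motifs, and its window was 59.2% G and C. Cd34 held none of the 4 motifs. Sox4 held 1 E-box and 1 GAGGAA. Klrb1c held 1 E-box, 2 copies of GAGGAA and 1 RUNX core, the last left in lower case. Of 32851 RefSeq promoter windows of the same length, 66.2% held an E-box, 23.3% held GAGGAA, 14.0% held the RUNX core and 32.7% held the GC box. Promoter entries were matched for 7 of the 9 genes.

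Flt3, the receptor tyrosine kinase for Flt3 ligand, lies at chr5:147330741-147400489 (GRCm38, GENCODE M21, minus strand). It was found in 8, 7, 8 and 7 cells of libraries 1 to 4, or 30 of 292 cells (10.3%, 95% exact Clopper-Pearson interval 7.04% to 14.3%). Its level in the summed cells of each library was 11.9, 11.1, 15.0 and 16.1 CPM, and these averaged 13.5 ± 2.4 (SD, n = 4). The libraries were close to each other, both in level and in number of cells. The 437 Flt3 counts were spread over these cells, the highest holding 55 counts and 6 of 30 cells holding 1 count. The gene for its ligand, Flt3l, was at 24.3 ± 12.5 CPM (SD, n = 4) with counts in 46 cells.

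Cd34, a sialomucin of progenitors and endothelium, lies at chr1:194938819-194961279 on the plus strand. Its level was 112, 95.8, 130 and 91.6 CPM in libraries 1 to 4, mean 107 ± 17.6 (SD, n = 4), and it was found in 141 of 292 cells. Its share of cells ranged from 44.6% in library 1 to 51.4% in library 4. Emb, embigin, a membrane glycoprotein that chaperones monocarboxylate transporters, lies at chr13:117208536-117274415 on the plus strand. Its level was 139, 211, 171 and 154 CPM, mean 168 ± 31.0 (SD, n = 4), with counts in 178 cells. Both genes were found in a large part of cells in every library, and no library stood apart for either.

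Bcl11a, a zinc finger repressor required for lymphoid development, lies at chr11:24078056-24174123 on the plus strand. It was the member found in most cells, 217 of 292, and its level was 157, 222, 228 and 158 CPM, mean 192 ± 39.0 (SD, n = 4). Libraries 2 and 3 were the higher pair. The share of cells with Bcl11a was 66.7% in library 4 and between 75.7% and 77.5% in the others. Asked for at least 3 counts, the shares were 62.2%, 65.3%, 67.6% and 61.1%, and library 4 no longer stood apart. Sox4, an HMG box transcription factor that B cell precursors need, lies at chr13:28948919-28953713 on the minus strand and is a gene of 1 exon. Its level was 27.0, 29.4, 13.1 and 22.7 CPM, mean 23.1 ± 7.2 (SD, n = 4), with counts in 13, 15, 8 and 18 cells. Library 3, the library with the lowest counts per cell, had the lowest value.

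Syk, the cytoplasmic kinase that binds phosphorylated ITAM motifs of immune receptors, lies at chr13:52583173-52648792 on the plus strand. Its level was 18.4, 34.9, 8.57 and 29.4 CPM, mean 22.8 ± 11.7 (SD, n = 4), with counts in 17, 13, 9 and 16 cells. The highest library was library 2 and the lowest library 3, and 1 cell held 9.84% of all Syk counts. Cd79b, the Ig beta chain that carries such a motif in the B cell receptor, lies at chr11:106311341-106314762 on the minus strand. Its level was 101, 96.7, 90.7 and 108 CPM, mean 99.0 ± 7.2 (SD, n = 4), with counts in 109 cells. The 4 libraries differed little: the coefficient of variation (SD over mean) was 7.22%, and only 5.11% of the 8539 genes at 10 CPM or more had a lower value. The median over those genes was 25.2%. Cd79b counts were found while the B cell genes Ms4a1 and Pax5 were at or near 0. Cd79a, the gene of the partner chain of Cd79b, was not among the genes of the count table.

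The other genes of ITAM signalling give the setting of Syk and Cd79b. Of 20 listed genes 17 were in the table and 12 were found in at least 20% of cells. The 4 with the highest level were Ptpn6 (249 ± 22.2 CPM), a phosphatase, Fcer1g (156 ± 28.2 CPM), an ITAM adaptor, Lcp2 (138 ± 16.8 CPM) and Plcg2 (117 ± 29.8 CPM), all SD with n = 4. The other ITAM adaptor of the list, Tyrobp, was at 5.76 ± 4.6 CPM with counts in 12 cells. The B cell adaptor Blnk had counts in 2 cells. Of 50 further lymphoid and multipotent progenitor genes, 40 were in the table and 15 were found in at least 20% of cells. The 4 with the highest level were Ltb (695 ± 66.5 CPM), a TNF family cytokine, Lsp1 (393 ± 48.8 CPM), an actin-binding protein of leukocytes, Hes1 (353 ± 110 CPM), a Notch target, and Mef2c (332 ± 53.6 CPM), a transcription factor.

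Cd69, a C-type lectin induced early in lymphocyte activation, lies at chr6:129267325-129275436 on the minus strand. Its level was 20.1, 52.5, 22.1 and 100 CPM, mean 48.8 ± 37.4 (SD, n = 4), and it was found in 6, 5, 3 and 20 cells. Library 4 was highest in both measures, followed in level by library 2, and it stood apart in its share of cells, with Cd69 in 27.8% of its cells (95% exact Clopper-Pearson interval 17.9% to 39.6%) against 4.23% to 8.11% of the others. Without library 4 the mean level was 31.6 CPM and the mean share 6.33%, against 11.7% with it. In library 4, 11 of the 20 cells held 1 count, so that at 3 counts or more Cd69 was in 9 of 72 cells there (12.5%) and in 4, 4 and 2 cells of libraries 1 to 3. Few cells carried most of the transcript. The highest cell held 515 of 1814 counts and the 10 highest held 88.0%. Over the libraries its coefficient of variation was 76.8%, and 97.4% of the genes at 10 CPM or more varied less.

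Klrb1c, the NK1.1 receptor of natural killer cells, lies at chr6:128778485-128789215 on the minus strand, 478.11 kb from Cd69. Its level was 86.9, 99.7, 27.8 and 41.3 CPM, mean 63.9 ± 34.8 (SD, n = 4), with counts in 16, 22, 7 and 8 cells. Libraries 1 and 2 were above libraries 3 and 4 in level and in cells. In library 2, 10 of the 22 cells held 1 count, and none did in libraries 3 and 4. Where 3 counts were asked for, Klrb1c was in 14, 11, 7 and 8 cells. Other killer cell receptor genes were at or near 0: Klrb1f had counts in 5 cells, and Klrd1, Klrc2, Klrg2 and Klra17 in 1 cell each. The gene for the related lectin ligand Clec2d was at 13.9 ± 2.3 CPM (SD, n = 4) in 39 cells. Reads that Klrb1c shares with near-identical Klrb1 genes could have been split or lost in counting, so its level is uncertain. Gm44511 overlaps its exons on the same strand.

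**Figure D1:**
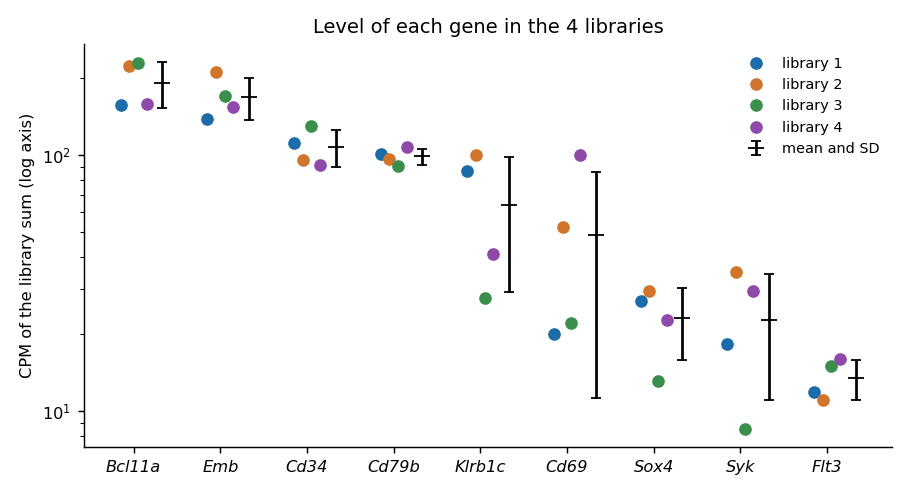
Level of each gene in the summed cells of each library, in CPM on a log axis; points are libraries 1 to 4 and the bar is the mean with SD. Cd79b stays between 90.7 and 108 CPM, while Cd69 runs from 20.1 to 100 CPM with library 4 highest. Reads were enriched for 3′ ends and levels are not per length, so heights are to be compared within a gene.

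**Figure D2:**
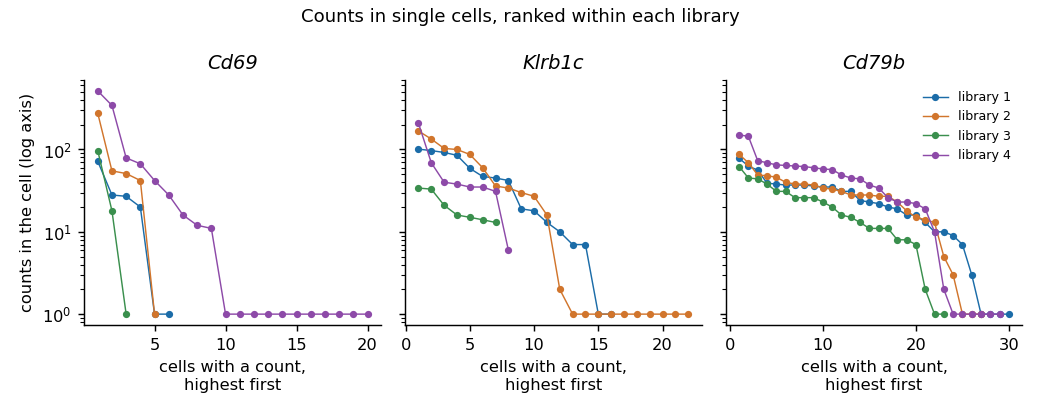
Counts of Cd69, Klrb1c and Cd79b in single cells, ranked from highest within each library, on a log axis. The long flat ends at 1 count belong to Cd69 in library 4 (11 of 20 cells) and Klrb1c in library 2 (10 of 22 cells), while Cd79b counts decline similarly in each library.

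The shares of cells can be put in order from their ranges over the 4 libraries. Bcl11a (66.7% to 77.5%) and Emb (55.4% to 66.7%) met at their edges, Cd34 (44.6% to 51.4%) and Cd79b (32.4% to 40.5%) had ranges of their own, and the ranges of Syk, Sox4, Klrb1c and Cd69 overlapped. Flt3 (9.33% to 11.3%) lay within the range of Cd69, overlapped that of Klrb1c, met that of Sox4 at its edge and was below that of Syk (12.7% to 23.0%). The median gene of the table was at 18.9 CPM and in 13.4% of cells. Pooled over libraries, cells with a member had higher median totals than cells without it, though not in every library. For Flt3 they were 111936 and 92452 counts over all cells, and 99569 and 99607.5 counts in library 2.

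Each cell was therefore also thinned to 30000 counts, which left 276 cells. The mean share was then 65.8% for Bcl11a, 54.5% for Emb, 39.2% for Cd34, 33.3% for Cd79b, 16.5% for Klrb1c, 14.8% for Sox4, 14.4% for Syk, 9.10% for Flt3 and 7.52% for Cd69. Genes that HSCs are not known to use gave a background on the same cells. It was 25.9% for Hba-a1, 24.0% for Hbb-bs, 22.9% for Hbb-bt, 18.8% for S100a8 and 9.47% for S100a9, but 1 of 276 cells each for Cd3e and Ms4a1. Bcl11a, Emb, Cd34 and Cd79b lay above all of these. Shares of Klrb1c, Sox4, Syk, Flt3 and Cd69 lay below those of the globins and S100a8, and were not read as shares of expressing cells. The part of free RNA in them was not tested.

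**Figure D3:**
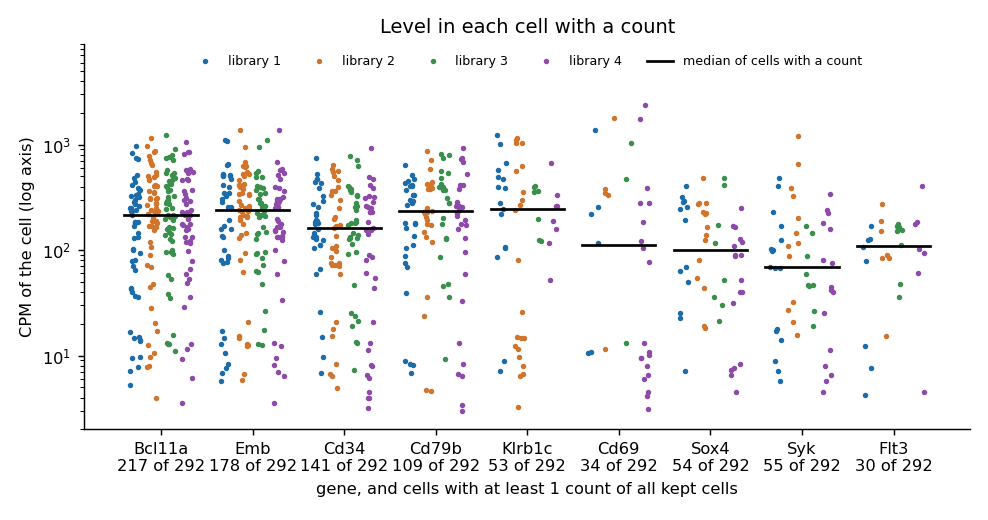
Level of each gene in each cell with at least 1 count, in CPM of that cell on a log axis, coloured by library; the line is the median of cells with a count. Most members show a main group near or above 100 CPM and a separate tail near 10 CPM, which is widest for Cd69 in library 4 and Klrb1c in library 2.

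Cells carried a median of 3 of the 9 genes, 11 cells carried none and 1 cell carried 8. To ask which members shared cells, the number of thinned cells with both genes was set against the number given by the 2 shares within each library. Cd69, Syk and Sox4 had led a cluster with many Flt3 cells in earlier work on these data, so their sharing was in part fixed by the choice of members. Of 36 pairs, 35 had at least 3 cells expected, 23 were above a ratio of 1 and 7 reached 1.5. Over all genes, from 52.4% for Klrb1c to 71.9% for Cd34 were above 1 with a member, so the count above 1 is near the background.

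Sox4 and Syk were found together in 16 cells against 6.18 from their shares, a ratio of 2.59, above in 4 of 4 libraries. Flt3 and Sox4 shared 10 cells against 3.63, a ratio of 2.75 and above in 4 of 4. Flt3 and Cd34 shared 17 of the 25 thinned Flt3 cells against 9.86, a ratio of 1.72 and above in 4 of 4. Flt3 was thus found with Sox4 and with Cd34 more often than the shares give in every library, while Cd34 and Sox4 (1.38) were so in 3 of 4. Flt3 and Emb shared 21 cells against 13.7 (1.54, 4 of 4 libraries). Cd34 and Syk shared 24 cells against 15.5 (1.55, 4 of 4 libraries). Syk and Cd69 shared 8 cells against 3.14 (2.55, 3 of 4 libraries). Flt3 and Syk shared 6 cells against 3.54 (1.69), above in 1 of 4 libraries and below in 2. Without library 2, 1 shared cell was left and the ratio was 0.40. Flt3 and Cd69 shared 4 cells against 1.84, too few to be counted among the 35. Over the other settings, each library left out included, the ratio ran from 2.12 to 2.99 for Sox4 and Syk, from 1.93 to 3.07 for Flt3 and Sox4 and from 1.52 to 2.28 for Flt3 and Cd34.

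Klrb1c was above a ratio of 1 with 1 of 8 partners, against 52.4% of all genes. It shared 3 cells with Syk against 7.08 (0.42, below in 3 of 4 libraries). With Flt3 it shared 2 cells against 4.08 (0.49), above in 2 libraries and below in 2. With Cd79b it shared 11 cells against 15.4 (0.71, below in 4 of 4 libraries). Cd79b, which is linked to Syk in B cells, was found with it at a ratio of 0.89.

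The share of all genes that reached 1.5 with a member is given beside each count. It covers genes found in at least 5% of thinned cells with at least 3 shared cells expected. These genes were not matched to the members in their share of cells. Flt3 reached it with 4 of 7 partners, against 10.8% of all genes. Syk reached it with 4 of 8, against 10% of all genes. Sox4 reached it with 2 of 8 (7.17% of all genes), Cd34 with 2 of 8 (2.36%), Emb with 1 of 8 (0.357%) and Cd69 with 1 of 7 (9.73%). None of 8 partners reached it for Bcl11a (0.0111%), Cd79b (1.74%) or Klrb1c (4.79%). A pair counts for each of its genes, so these counts are not independent. Both counts of 4 include Flt3 with Syk, whose ratio was 0.40 without library 2. The sharing of Flt3, Cd69, Syk and Sox4 was in part fixed by the choice of members, so these contrasts are a description only.

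**Figure D4:**
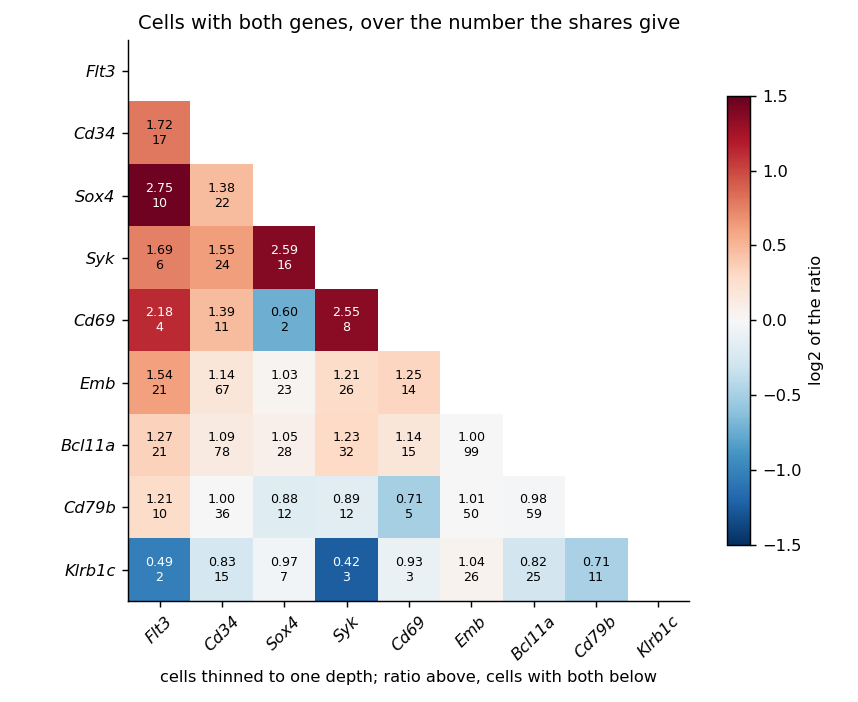
Cells with both genes of a pair in cells thinned to 30000 counts, as a ratio to the number the shares of each library give; the colour is log2 of the ratio, the upper number the ratio and the lower number the cells with both. Red fields lie among Flt3, Cd34, Sox4 and Syk, with Sox4 and Flt3 at 2.75, and the Klrb1c line is mostly blue, with Syk at 0.42.

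Spearman correlations between members within libraries were low, with mean rho from -0.11 to 0.31 and a median of 0.01 over the 36 pairs. They describe 64 to 72 thinned cells per library, which share a library and hold many zeros. The highest was Sox4 with Syk (0.31, and 0.07, 0.53, 0.46 and 0.16 in libraries 1 to 4). For Flt3 and Cd34 the mean was 0.23. Against the summed level of the other 8 members, mean rho was 0.28 ± 0.067 (SD, n = 4) for Flt3, 0.24 ± 0.12 for Syk and -0.12 ± 0.18 for Klrb1c. With the number of genes found in the thinned cell, rho was 0.25 for Cd34, 0.17 for Syk and 0.14 for Flt3, and the part of this breadth in the values above was not tested.

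Genes most like each member were taken as the 5 highest by mean rho among genes found in at least 20% of cells and positive in 4 of 4 libraries. Values were weak throughout and are a description only. For Cd34 they were Cmtm7 (0.34), Tmsb10 (0.32), Ctla2a (0.30), Rasal3 (0.28) and Dok3 (0.24). For Sox4 they included Ramp1 (0.28), Cmtm7 (0.26), Tmsb10 (0.26) and Ganc (0.22), so 2 of the 5 were also among those of Cd34. Syk had Crip1 (0.30), Ramp1 (0.28), Rnase6 (0.28), Myb (0.27) and Ctla2a (0.26). The transcription factor Myb is known from progenitors, and Ctla2a encodes a protease inhibitor. Flt3 had Sh3kbp1 (0.26), an adaptor of receptor endocytosis, Smim3 (0.25), Stat5a (0.25), a signal transducer of cytokine receptors, Cep85 (0.24) and Mtmr3 (0.24).

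For Cd69 the 5 included Glipr1 (0.28), Nup35 (0.23), Shc1 (0.23) and Mcrs1 (0.21). Klrb1c had Serpina3g (0.30), a serpin, Dus3l (0.23), Ldha (0.22), Clca3a1 (0.20) and H2-D1 (0.20), an MHC class I gene. For Emb they were Tle6 (0.22), Arhgap9 (0.22), Tbc1d9b (0.21), 1810043G02Rik (0.20) and Cnrip1 (0.20). Bcl11a had Pabpc1 (0.21), Ap4s1 (0.21), Cdk17 (0.20), Rps10 (0.19) and Map2k5 (0.19). Cd79b had Clic1 (0.21), Smpdl3a (0.20), Pik3cg (0.20), Znrd1 (0.20) and Nfe2l1 (0.19). The share of genes with a mean rho of at least 0.2 that were also positive in 4 of 4 libraries was 0.595% for Cd34, 0.397% for Flt3, 0.397% for Syk and 0.264% for Sox4. It was 0.132% for Cd69, 0.11% for Emb, 0.0881% for Klrb1c, 0.0441% for Bcl11a and 0.0441% for Cd79b. Among negative values, named after they were seen, Cd34 had Mllt3 (-0.24), Sult1a1 (-0.22) and Apoe (-0.21), and Syk had Ifitm1 (-0.22). Against the summed level of the HSC identity genes, rho was -0.12 ± 0.20 (SD, n = 4) for Cd34 and -0.10 ± 0.096 for Syk, and it was positive for Cd34 in library 4 (0.13).

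Cells with at least 1 Flt3 count were then compared with cells without, on counts summed per library, so that 30 cells in arms of 8, 7, 8 and 7 stood against 262. Cd34 was 243, 231, 314 and 209 CPM in cells with Flt3 and 85.6, 83.1, 104 and 74.7 CPM in cells without. Every library with Flt3 was above every library without, with means of 249 ± 45.4 and 86.8 ± 12.2 (SD, n = 4). The log2 difference was 1.44 with a standard error of 0.31, in 4 of 4 libraries. In edgeR's quasi-likelihood test with the library as a block, the unadjusted p was 0.000393 and the Benjamini-Hochberg adjusted p was 0.575, so the difference did not pass. In DESeq2, Cd34 passed with an adjusted p of 0.00921. Of the cells with Flt3, 22 of 30 had Cd34 counts, against 119 of 262 without.

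Cd69 was 23.5, 134, 146 and 364 CPM in cells with Flt3 and 19.4, 44.9, 4.14 and 62.1 CPM in cells without, higher in 4 of 4 libraries with overlapping ranges. Its log2 difference was 2.21 with a standard error of 0.72 and did not pass (edgeR adjusted p = 0.839). Only 7 of the 30 cells carried it, and single cells weighed heavily: 1 cell held 515 counts in library 4, and 1 cell held all 97 counts in library 3. Bcl11a was 263 ± 73.1 against 181 ± 39.1 CPM and Emb 225 ± 73.0 against 162 ± 27.9 CPM (SD, n = 4), each higher in 4 of 4 libraries and neither past the threshold. Sox4 (42.8 ± 34.2 against 20.9 ± 6.3 CPM) and Syk (70.0 ± 113 against 18.6 ± 10.2 CPM) were carried by library 2, where cells with Flt3 were at 93.7 CPM for Sox4 and 239 CPM for Syk. Cd79b was 86.0 ± 27.3 against 101 ± 7.8 CPM. Klrb1c was listed at 0 in cells with Flt3 in libraries 1 and 2 and at 49.8 and 24.7 CPM in libraries 3 and 4, and it had counts in 2 of 30 cells against 51 of 262.

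Of the 8 other members, 6 had a log2 difference above 0 and 2, Cd34 and Cd69, were higher at an unadjusted p under 0.05, against 0.502% of all genes. The median of the 8 was 0.48. Over all 9565 genes tested the median was -0.50, and over the 5299 of them found in at least 20% of cells it was -0.26. The sharing of Flt3 with Cd69, Syk and Sox4 was in part fixed by the choice of members. The contrasts of members with all genes are therefore a description only. No gene passed at an adjusted p of 0.05 in edgeR, where 48 genes were higher (0.502%) and 439 lower (4.59%) at an unadjusted p under 0.05. DESeq2 called 10 higher (0.105%) and 67 lower (0.7%), and Cd34 was the only one of the 8 members among them. Of the 27 further lymphoid and multipotent progenitor genes tested, 12 were above 0, none was higher and 2 lower at an unadjusted p under 0.05 (median -0.10). Of the 20 HSC identity genes, 1 was above 0, against 2451 of all 9565 genes. At an unadjusted edgeR p under 0.05, 8 of the 20 were lower. This compares with 439 of all 9565 genes and 193 of the 5299 found in at least 20% of cells. The median of the 20 was -0.50, that of all genes -0.50 and that of the 5299 genes -0.26.

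**Figure D5:**
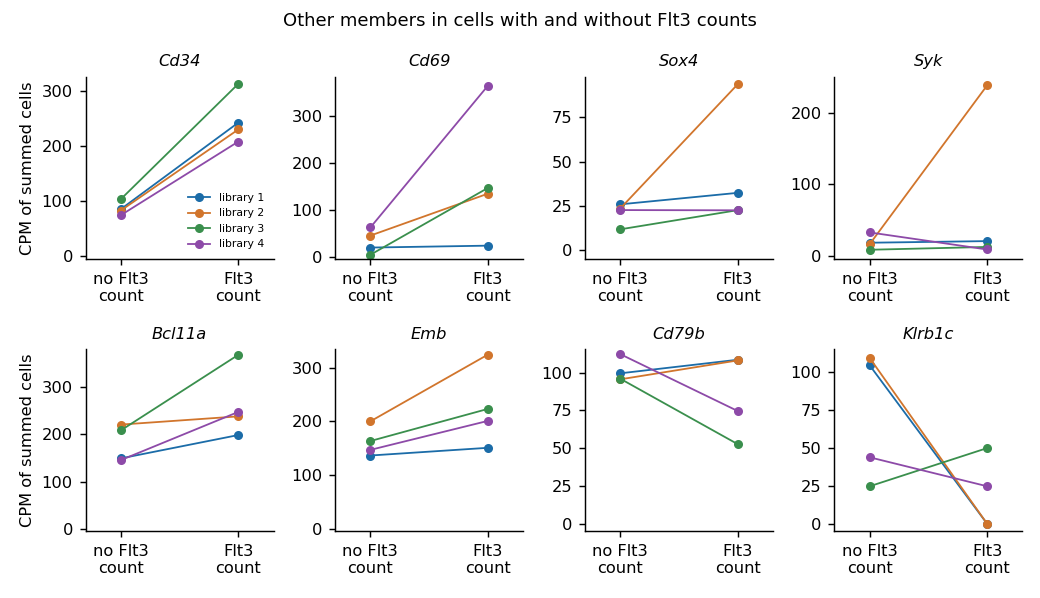
Levels of the other 8 members in the summed cells without and with a Flt3 count, in CPM; each line is a library. All 4 lines go up for Cd34, from a mean of 86.8 to 249 CPM, while Sox4 and Syk rest on library 2 and Klrb1c is at 0 in libraries 1 and 2.

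Genes outside the 9 with the lowest p in this comparison were named after their values were seen. H2-Ab1, an MHC class II chain, was at 2.43, 1.44, 0 and 1.41 CPM in cells with Flt3 and at 130, 95.3, 139 and 102 CPM in cells without, the lowest adjusted p in edgeR (0.0696). Cd74, the invariant chain of class II, was at 184 ± 82.7 against 512 ± 139 CPM (SD, n = 4), with an edgeR adjusted p of 0.0929. Id1, an inhibitor of E proteins, was at 0.20 against 86.5 CPM (0.0929) and the receptor component Ramp2 at 0.72 against 91.3 CPM (0.0929). Apoe was at 974 ± 249 against 1687 ± 32.7 CPM (adjusted p = 0.132). Each of the 5 was lower in 4 of 4 libraries, and none passed in edgeR as fitted above. Of the 30 cells with Flt3, 6 had counts of H2-Ab1, 1 of Id1, 2 of Ramp2, 24 of Cd74 and 28 of Apoe. Of the 262 cells without, 82 had counts of H2-Ab1, 41 of Id1, 59 of Ramp2, 167 of Cd74 and 253 of Apoe. H2-Ab1, Id1 and Ramp2 were thus found in a minority of cells in both arms. Cd74 was found in a larger share of the cells with Flt3, though its level there was lower. With cells thinned to 30000 counts, 12 genes passed, all lower in cells with Flt3. Among them were H2-Ab1, Cd74, Id1, Apoe, Serpina3g, Gng11, Anxa5, B2m, Tmsb4x, Rps14 and Rps27. The median log2 difference over all genes in that fit was -0.43. B2m (-0.39), Tmsb4x (-0.43), Rps14 (-0.40) and Rps27 (-0.40) lay near this median, so they were not lower than genes in general. Genes higher with Flt3 that DESeq2 called included Cmtm7 (1128 ± 103 against 652 ± 25.2 CPM), Ramp1 (527 ± 182 against 247 ± 58.6 CPM) and Sh3kbp1 (138 ± 31.8 against 32.1 ± 4.6 CPM).

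Cells with Cd69 (34, in arms of 6, 5, 3 and 20) were compared with the other 258 in the same way, with the caution that 15 of the 34 held 1 count. Flt3 was at 40.8 ± 21.4 against 10.7 ± 2.1 CPM (SD, n = 4), higher in 4 of 4 libraries, with a log2 difference of 1.69 and a standard error of 1.57 that did not pass (edgeR adjusted p = 0.873). Klrb1c was at 12.5 ± 23.0 against 68.0 ± 39.8 CPM, lower in 3 of 4 libraries (edgeR adjusted p = 0.682). Of the 8 members, 5 were above 0, none was higher and 1, Klrb1c, was lower at an unadjusted p under 0.05, against 4.98% of all genes. Their median was 0.12, beside -0.77 over all 9784 genes tested. Here too the choice of members fixed the sharing in part, so this contrast is a description only. No gene passed in edgeR, where 18 were higher (0.184%) and 487 lower (4.98%) at an unadjusted p under 0.05. DESeq2 called 2 higher (0.0204%) and 18 lower (0.184%), none of them a member.

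Named after their values were seen, the NF-kB inhibitor gene Nfkbia was at 630, 1621, 2108 and 778 CPM in cells with Cd69 and at 586, 614, 552 and 481 CPM in cells without. It was higher in 4 of 4 libraries, clearly so in libraries 2 and 3 (edgeR adjusted p = 0.362). The immediate early gene Fos was at 3324 ± 1414 against 4624 ± 787 CPM (adjusted p = 0.362), lower in libraries 1 to 3 and higher in library 4. Spi1, which encodes PU.1, was at 357 ± 81.5 against 161 ± 32.7 CPM (adjusted p = 0.546), higher in 4 of 4 libraries. When a cell needed 3 counts of Cd69, 5 genes passed, all lower: Fos, Dusp1, Apoe, Dnajb1 and Gnl3. The median log2 difference over all genes in that fit was -1.18. Fos (-0.86), Dusp1 (-0.94) and Apoe (-1.19) lay above or near this median, and Dnajb1 (-2.06) and Gnl3 (-3.18) lay below it.

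For Klrb1c, 53 cells stood against 239. None of the 8 other members had a log2 difference above 0, with a median of -0.90 beside -0.37 over all 9872 genes. Not every member was lower in each library. Cd69 was at 95.3 ± 177 against 43.9 ± 21.8 CPM (SD, n = 4), higher only in library 4 (361 against 55.3 CPM). Flt3 (14.4 ± 17.0 against 14.9 ± 1.7 CPM), Sox4 and Cd79b were each higher in 2 of 4 libraries. Cd34 was at 71.1 ± 17.9 against 119 ± 18.1 CPM and Emb at 128 ± 41.5 against 179 ± 31.9 CPM (SD, n = 4), each lower in 4 of 4 libraries, and neither passed (edgeR adjusted p = 0.965 for both). No member reached an unadjusted p under 0.05, where 64 genes were higher (0.648%) and 322 lower (3.26%). No gene passed in edgeR, and DESeq2 called 2 higher (0.0203%) and 50 lower (0.506%), none of them a member. The serpin genes Serpina3g (2135 ± 1147 against 892 ± 173 CPM) and Serpina3f (218 ± 126 against 50.1 ± 28.8 CPM) and the cytokine signalling inhibitor Socs2 (209 ± 75.1 against 99.1 ± 31.5 CPM) were named after their values were seen. Their edgeR adjusted p was 0.965. DESeq2 called Serpina3f (adjusted p = 0.0143).

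For Cd79b, 109 cells stood against 183. Of the 8 other members 3 were above 0, with a median of -0.39 beside -0.06 over all 10148 genes. Sox4 was at 15.6 ± 7.6 against 28.2 ± 8.9 CPM (SD, n = 4) and lower in 4 of 4 libraries (edgeR adjusted p = 0.999). Syk, the kinase of the B cell receptor complex, was at 13.8 ± 9.0 against 30.1 ± 17.2 CPM, lower in 3 of 4 libraries and not past the threshold. No member reached an unadjusted p under 0.05, where 142 genes were higher (1.4%) and 178 lower (1.75%). No gene passed in edgeR, and DESeq2 called 5 higher (0.0493%) and 19 lower (0.187%), none of them a member. The lowest adjusted p in edgeR was 0.999.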

How the data were processed

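The authors deposited unnormalized counts, 1 whole number for each gene in each cell. Per the submitters' processing notes, Trimmomatic 0.36, HISAT2 2.1.0, HTSeq 0.9.1 and GRCm38 were used. The annotation, the strand setting and any collapsing of PCR copies are not given in the sources used here. Nonzero values had a median of 18, and 14.1% of them equalled 1, so a count is not a molecule, and intervals cover counting error only. Genes that overlap on opposite strands cannot be told apart if strand was not used: Cd34, Bcl11a, Emb and Sox4 have such a partner in exons.

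The members and gene lists were chosen with earlier results of these data known. Each cell was placed in its library by its name. No doublet caller was run, since the labels' protocols describe sort settings against doublets. CPM was computed from counts summed over the kept cells of a library, and the largest mitochondrial share in a cell was 4.93%. For co-detection and correlations, cells were thinned at random with a fixed seed to 30000 counts, leaving out 16 shallower cells. Pairs were counted where the shares gave at least 3 cells.

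For Flt3, Cd69, Cd79b and Klrb1c, counts were summed per library over cells with at least 1 count and over the rest, leaving the splitting gene out. The sums were tested with edgeR 4.0.16 (quasi-likelihood, TMM, filterByExpr, library as block) in R 4.3.3, with Benjamini-Hochberg adjustment over all tested genes and a threshold of 0.05. The sums of a library come from the same library, so they are paired by design. Code was tested on simulated data. Alternatives were DESeq2 1.42.0, RLE size factors, no low-count filter, thinned cells, positive cells from 3 counts, no block, leaving out the 15 cells that stood apart, and leaving out each library.

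Named were all 9 members, the 5 highest correlates of each member, the 4 highest genes of the lists described and, for each split, the 10 most changed genes either way among those past the threshold. None passed, so other genes of the splits were named after their values were seen. A few genes that these rules name are not reported here. Positions came from GENCODE M21 and promoters from RefSeq (GRCm38.p6).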

Additional observations from a re-analysis of the deposited data

Results flagged for a closer look

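The gap of the highest or lowest library to its neighbour, divided by the range of the 4 libraries, exceeded Dixon's 95% critical value for 4 samples for 2 of the shares of cells. Chance gives such a gap in about 1 of 20 groups. Cd69 was found in 27.8% of the cells of library 4, the highest library, with a gap of 0.835 of the range. In that library 11 of its 20 cells held 1 count, and median totals per cell were highest in library 4 (142675 counts). Bcl11a was found in 66.7% of the cells of library 4, the lowest library, with a gap of 0.834 of the range.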

How the results depend on the processing

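All 72 alternative values of the 9 levels lay within 1 SD of those reported. Of 63 alternative shares of cells, 11 moved by more, all downward, on asking for 3 counts or thinning. The count of genes past an adjusted p of 0.05, 0 in all 4 splits with edgeR, depended on the setting. For Flt3 it was 77 with DESeq2, 5 with no low-count filter, 12 with thinned cells, 1 with no replicate block, and 0 to 1 on leaving out each library (1 without library 3). For Cd69 it was 20 with DESeq2, 1 with no low-count filter, 2 with thinned cells, 5 with cells positive from 3 counts, and 0 to 6 on leaving out each library (6 without library 1, 2 without library 2, 3 without library 4). With RLE size factors the median log2 difference of all genes in the Cd69 split was -0.67, against -0.77 with TMM. DESeq2 called 24 genes for Cd79b and 52 for Klrb1c, and edgeR called 0 to 1 for Klrb1c on leaving out each library (1 without library 4). With no replicate block, the other 3 splits stayed at 0. The 7 pairs at a ratio of 1.5 became 4 at 3 counts or more, 4 without the 15 cells that stood apart, and 3 to 6 on leaving out each library: 3 without library 1, 3 without library 2 and 4 without library 3. Genes at a mean rho of 0.2 numbered 94 over the 9 members, 150 with counts as deposited and 161 with genes found in at least 10% of cells. Fewer pairs have 3 expected cells when cells are left out. The cause of the other differences was not tested. Depth limits the small arms: 30 cells with Flt3 and 34 with Cd69, of which 3 in library 3, carry the comparisons.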
